A study of Mus musculus with 6 samples.

Results

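The genes examined were 23 mouse genes. Most of their protein products move cargo along cilia and sperm tails or make those structures beat. These are intraflagellar transport genes (symbols beginning Ift), Bardet-Biedl syndrome genes (Bbs) and axonemal dynein chains (Dnah, Dnal). The other 4 encode chains of cytoplasmic dynein 1 (Dync), a motor at work inside nearly every cell. All 23 were taken by symbol: every probe set annotated to 1 gene whose symbol starts with one of those letters, or with Dnaic or Dnali, followed by a digit. That gave 28 probe sets for 23 of the 12393 named genes, out of 22626 probe sets tested, and 0 of the 23 were removed by a filter. The rule reads only symbols, but the families were chosen on earlier results of this same comparison, from the log2 values of these 6 arrays. Counts, differences and adjusted p values of these genes are therefore a description of the arrays and are not used as evidence for anything.

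The samples were 6 preparations of testis cells from transgenic mice of the line Stra8-CD4HAglo, each hybridised to 1 Affymetrix Mouse430A_2 array, whose probe sets, small collections of short probes, each read out a transcript. Every mouse had human CD4 as a surface marker, driven by a shortened promoter of Stra8, a gene switched on in germ cells, and no untransgenic animals were part of the comparison. In 3 arrays, titled spermatogonial stem cells, the RNA came from cells held by magnetic beads against human CD4, with 50 males pooled per preparation. The other 3 arrays are titled total testicular cells, while their source text names cells negative for the marker, so whether they hold all cells or the depleted remainder is not settled by the labels. The instrument settings of all 6 arrays carry the same sample type, a stem cell one, so they do not tell the groups apart and the grouping rests on the titles. Age and strain background were not given in the labels used here. The comparison asked which transcripts were higher or lower in the marker-positive cells. Nothing in the labels says that replicates of a group came from independent animals in the total testicular cell group, so p values there measure the spread between these preparations.

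The values are log2 probe set levels as deposited. Medians ran from 3.25 to 3.28 on the total testicular cell arrays and from 3.34 to 3.44 on the stem cell arrays, and 79.7% to 84.1% of probe sets exceeded 2.15, the background level set from bacterial controls. Markers went against the title of the stem cell group in part. Of 15 measured markers of undifferentiated spermatogonia, 14 were under or no more than 2 log2 units over background in total testicular cells, and 0 passed the test in either direction (limma adjusted p under 0.05), while before adjustment 1 was lower and 1 higher at p under 0.05. Of 18 macrophage markers, 14 rose and 0 fell, among them Csf1r (log2 difference 4.76), Lyz2 (4.69), C1qc (4.58) and Tyrobp (4.55). Their mean level ran from 3.89 to 4.27 on the total testicular cell arrays and stood at 8.22, 6.86 and 6.66 on stem cell arrays 1, 2 and 3. The stem cell group is called by its title below.

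Cilia and the sperm tail are built around an axoneme, a ring of microtubule doublets. Intraflagellar transport (IFT) carries building blocks from the cell body to the tip with kinesin-2 and returns them with cytoplasmic dynein 2: IFT-B particles serve the outward journey and IFT-A particles the return. The BBSome, a complex of Bardet-Biedl syndrome proteins, rides on the IFT train and ferries membrane proteins in and out of the cilium. Axonemal dyneins are the motors fixed to the doublets that slide them past one another, whereas cytoplasmic dynein 1 hauls cargo and nuclei inside nearly every cell. All Dync genes examined here belong to cytoplasmic dynein 1, and none to cytoplasmic dynein 2. In the testis, developing spermatids assemble the tail, so genes of the axoneme and of IFT are known for their high expression in meiotic and haploid germ cells.

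Transcription of many ciliary genes is driven by RFX factors, which bind a palindromic sequence called the X-box. Promoter windows, from 250 bases before to 50 after the transcription start in the RefSeq table (mouse build GRCm38.p6), were found for 20 of the 23 genes, as 21 windows. Each was searched on both strands for a strict X-box, GTTNCC and GGNAAC separated by 0 to 3 bases, and for a loose X-box, GTNNCC and GGNNAC with the same spacing, of which every strict match is also a match. Sequences are shown for the 2 genes that held a match and for Ift20, the IFT gene with the lowest difference. They run 5′ to 3′ on the gene's strand, with loose X-box matches in capitals.

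Ift57 (chr16:49699044-49699343, plus strand): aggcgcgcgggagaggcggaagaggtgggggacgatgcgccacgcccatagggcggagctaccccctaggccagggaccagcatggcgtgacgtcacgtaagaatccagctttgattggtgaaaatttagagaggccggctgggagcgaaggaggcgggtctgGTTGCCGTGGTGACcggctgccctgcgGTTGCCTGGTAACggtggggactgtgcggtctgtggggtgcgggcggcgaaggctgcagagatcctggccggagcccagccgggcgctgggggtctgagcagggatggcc

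Ift22 (chr5:136907900-136908199, plus strand): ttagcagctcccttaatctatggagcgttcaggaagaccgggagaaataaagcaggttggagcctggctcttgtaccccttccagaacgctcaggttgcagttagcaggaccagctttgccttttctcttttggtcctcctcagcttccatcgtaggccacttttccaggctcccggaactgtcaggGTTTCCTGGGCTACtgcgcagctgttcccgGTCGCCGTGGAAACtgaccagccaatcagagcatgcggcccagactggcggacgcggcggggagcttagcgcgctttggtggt

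Ift20 (chr11:78536111-78536410, plus strand): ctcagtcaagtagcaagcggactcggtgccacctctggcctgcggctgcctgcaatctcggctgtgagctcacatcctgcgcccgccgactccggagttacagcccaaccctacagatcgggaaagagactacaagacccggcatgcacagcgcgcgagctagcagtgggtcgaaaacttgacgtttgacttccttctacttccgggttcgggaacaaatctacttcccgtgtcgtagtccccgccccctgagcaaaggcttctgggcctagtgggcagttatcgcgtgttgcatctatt

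The Ift57 window holds a strict X-box, GTTGCCTGGTAAC, whose first base lies 60 bases before the start, and a loose one, GTTGCCGTGGTGAC, at 87 bases before it. In Ift22, the loose matches GTTTCCTGGGCTAC and GTCGCCGTGGAAAC begin 63 and 33 bases before the start. A strict X-box was present in 1 of 20 member genes (5%) and in 253 of all 27025 genes with a window (0.936%). For the loose form the counts were 2 of 20 (10%) and 1185 of 27025 (4.38%). The CRE, TGACGTCA, which is bound by CREB family factors such as CREM of haploid germ cells, occurred in 1 of the 20, again Ift57, at 162 bases before its start, against 2.03% of all genes. Its short form, TGACG, which the full CRE contains, occurred in 6 of 20 member genes and 23% of all genes. Ift20 held a TGACG at 71 bases before its start. These matches are letters in a window and say nothing of binding.

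Across the 23 genes, levels leaned lower in the stem cell arrays, and the lean was largest on stem cell array 1. Of the 23 differences (stem cells minus total testicular cells), 21 were negative and 2 positive, with a median of −0.37 on the log2 scale and a range from −1.12 to 0.17. In 13 genes all 3 stem cell values lay below all 3 total testicular cell values, and in 0 genes above them. Over all genes 19.2% had all stem cell values below, 13.8% had all above and 57% had a negative difference, with a median of −0.05. No member passed the test: 0 of 23 were lower or higher at a limma adjusted p under 0.05, where 0.137% of all genes were lower and 1.63% higher. Before adjustment, 10 of 23 were lower and 0 higher at p under 0.05, against 13.1% and 11.8% of all genes. In such mixed samples, fewer cells of a type and less RNA per cell cannot be told apart.

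How bright a gene is bears on that reading. Of the 23, 19 had a mean over all 6 arrays more than 2 log2 units above background. The 5813 genes of the whole array for which this held, called bright here, also leaned lower, with a median of −0.21, 70.9% negative and 31.5% with all stem cell values below. The 19 bright members had a median of −0.45, 13 of them had all stem cell values below and 10 lay under an unadjusted p of 0.05, against 21.6% of bright genes lower at that p. A difference under the bright-gene median was found in 18 of the 23 members. In the 4 members within 2 log2 units of background (Dnah5, Dnah11, Dync1i1 and Dync1li1) the median was 0.00 and a difference could be missed for want of signal.

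**Figure D1:**
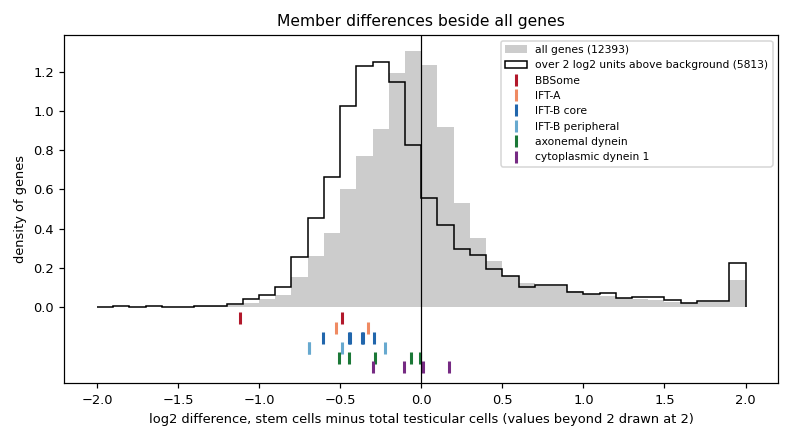
Log2 differences (stem cells minus total testicular cells, x axis) of all 12393 genes (grey) and of the 5813 genes whose 6-array mean lay over 2 log2 units above background (black outline), as densities of genes (y axis), with each member gene as a tick coloured by subgroup below. The ticks of the 12 IFT genes lie between −0.69 and −0.22, those of the 4 cytoplasmic dynein 1 genes between −0.30 and 0.17, and Bbs2 stands apart at −1.12.

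The largest difference belonged to the BBSome. Bbs2, a subunit of the BBSome core, read 6.39, 6.20 and 6.42 on total testicular cell arrays 1, 2 and 3 and 4.50, 5.82 and 5.32 on stem cell arrays 1, 2 and 3. All stem cell values lay below the others, and array 1 lay far below arrays 2 and 3. The group means were 6.34 ± 0.12 (SD, n = 3) and 5.22 ± 0.67 (SD, n = 3), a 2.17-fold lower level. On the log2 scale the difference was −1.12 ± 0.30 (SE), with a limma adjusted p of 0.0869. Bbs2 passed without stem cell replicate 2 (−1.42, adjusted p = 0.0318) and missed the threshold without stem cell replicate 1 (−0.76, adjusted p = 0.0723). Bbs9, another BBSome subunit, read 6.18, 5.96 and 6.24 against 5.41, 5.99 and 5.52. Here stem cell array 2 reached into the range of the total testicular cells, so the groups overlapped (−0.49 ± 0.20 SE, adjusted p = 0.182). No other gene with a Bbs symbol was analysed here.

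All 12 IFT genes had lower means in the stem cell arrays, from −0.69 to −0.22 with a median of −0.44, and in 9 of them all stem cell values lay below, against 19.2% of all genes and 31.5% of bright ones, as all 12 are. Of these 12, 6 lay under an unadjusted p of 0.05, against 13.1% of all and 21.6% of bright genes being lower at that p, and 0 passed after adjustment.

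Among IFT-B subunits of the peripheral subcomplex, which faces the kinesin motor, Ift20 and Ift80 had the lowest differences of the IFT genes. Ift20, which also sits at the Golgi and sorts membrane proteins bound for the cilium, read 5.94, 6.11 and 6.13 in total testicular cells and 5.05, 5.92 and 5.15 in stem cells. Stem cell arrays 1 and 3 were low together while array 2 lay just under the lowest total testicular cell value (−0.69 ± 0.24 SE, adjusted p = 0.140). Ift80, a scaffold subunit whose human counterpart is mutated in a skeletal ciliopathy, read 7.26, 7.17 and 7.21 against 5.97, 7.03 and 6.56. Its difference was −0.69 ± 0.25 (SE, adjusted p = 0.145), and its other probe set, with overlapping groups, gave −0.54. Ift57, whose promoter is shown above, read 8.02, 8.13 and 8.04 against 7.26, 7.91 and 7.56, again without overlap (−0.49 ± 0.18 SE, adjusted p = 0.151). Ift172, which takes part in the turnaround of trains at the tip, behaved unlike these: it read 10.05, 9.67 and 10.20 against 9.47, 9.53 and 10.25. Stem cell array 3 held the highest of its 6 values, and its difference was −0.22 ± 0.22 (SE, adjusted p = 0.571). Without stem cell replicate 2, Ift20 (−0.96, adjusted p = 0.0280), Ift80 (−0.94, adjusted p = 0.0398) and Ift57 (−0.66, adjusted p = 0.0452) passed.

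The 6 measured subunits of the IFT-B core had a median difference of −0.40, and 5 had all stem cell values below (19.2% of all genes, 31.5% of bright ones). Ift22, a small GTPase-like subunit, read 8.53, 8.60 and 8.40 in total testicular cells and 7.35, 8.34 and 8.01 in stem cells. Its stem cell array 1 lay 1.15 below the mean of the total testicular cells and array 2 only 0.16 below (difference −0.60 ± 0.23 SE, adjusted p = 0.163). Ift27, a GTPase that links the BBSome to the train, had 3 probe sets that all leaned the same way, at −0.63, −0.44 and −0.42. The brightest of them has an x_at suffix, which marks probes that can also bind other transcripts, and it read 7.45, 7.51 and 7.48 against 6.63, 7.34 and 7.15. Ift74 and Ift81 form a pair that binds tubulin. Ift74 read 9.65, 9.69 and 9.50 against 9.09, 9.50 and 9.16, with stem cell array 2 just under the lowest total testicular cell value (−0.37 ± 0.14 SE, adjusted p = 0.161). Ift81 differed by −0.45 on its brighter probe set, without overlap, and by −0.21 on the other, with overlap. Ift88, needed to build cilia in mouse, differed by −0.36, and Ift46, linked to the carriage of outer dynein arms, by −0.29 with overlapping groups.

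Both measured IFT-A subunits, which form part of the return train, had negative differences. Ift122 read 8.49, 8.29 and 8.65 against 7.54, 8.26 and 8.03, so that stem cell array 2 lay 0.21 under the total testicular cell mean and array 1 lay 0.93 under it (−0.53 ± 0.20 SE, adjusted p = 0.159). Ift140 read 9.06, 9.07 and 8.995 against 8.44, 9.04 and 8.65, and there stem cell array 2 fell inside the range of the total testicular cells (−0.33 ± 0.16 SE, adjusted p = 0.256). The medians of −0.43 for IFT-A, −0.40 for the IFT-B core and −0.59 for the IFT-B periphery rest on 2, 6 and 4 genes, and the difference between them was not tested.

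**Figure D2:**
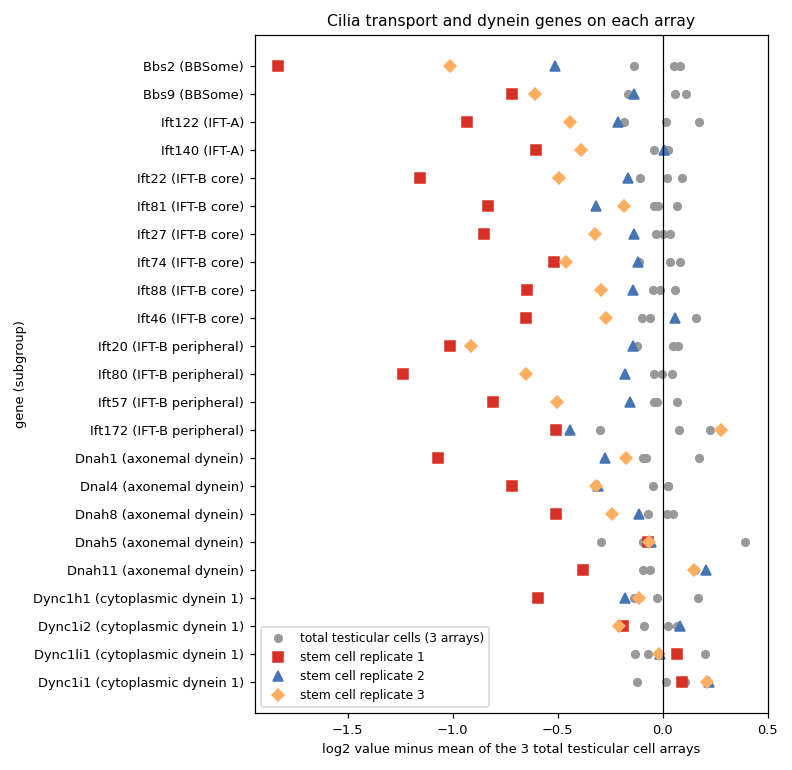
Each member gene's log2 value on every array minus the mean of its 3 total testicular cell arrays (x axis), by gene and subgroup (y axis); grey circles are total testicular cells, and squares, triangles and diamonds are stem cell replicates 1, 2 and 3. Among the stem cell points, the squares lie farthest to the left in 21 of 23 genes and the triangles farthest to the right in 18 of 23.

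Axonemal dynein genes gave a split picture that followed signal. Dnah8, an outer arm heavy chain of the sperm tail, read 10.36, 10.25 and 10.34 in total testicular cells and 9.81, 10.20 and 10.07 in stem cells. The groups did not overlap, although array 2 missed the lowest total testicular cell value by little (−0.29 ± 0.12 SE, adjusted p = 0.201). The other Dnah8 probe set lay near background on all arrays, from 2.10 to 2.40, and its −0.03 carries little information. Dnah1, an inner arm heavy chain needed for a stable sperm axoneme, read 5.35, 5.34 and 5.61 against 4.36, 5.16 and 5.26, without overlap, with array 1 well below the other two (−0.51 ± 0.25 SE, adjusted p = 0.254). Dnal4, an axonemal light chain, read 7.50, 7.43 and 7.50 against 6.76, 7.17 and 7.16, and its stem cell arrays 2 and 3 read almost alike (−0.45 ± 0.16 SE, adjusted p = 0.150). Dnah5 and Dnah11, outer arm heavy chains best known from airway and nodal cilia, lay near background. Dnah5 read 1.93, 2.61 and 2.13 against 2.15, 2.17 and 2.15, and Dnah11 read 2.90, 2.87 and 3.11 against 2.58, 3.16 and 3.11. Neither differed beyond its spread (−0.06 ± 0.17 and −0.01 ± 0.19 SE, adjusted p = 0.851 and 0.984).

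Cytoplasmic dynein 1, the general motor, had the smallest median lean, but only 2 of its 4 genes are bright. All 4 had overlapping groups, where over all genes 19.2% had all stem cell values below and 13.8% all above. The heavy chain gene Dync1h1 read 8.54, 8.43 and 8.74 in total testicular cells and 7.97, 8.39 and 8.46 in stem cells, with only array 1 clearly lower (−0.30 ± 0.17 SE, adjusted p = 0.309). Dync1i2, the widely expressed intermediate chain, read 8.04, 7.99 and 7.88 against 7.78, 8.05 and 7.76 (−0.11 ± 0.14 SE, adjusted p = 0.696). For Dync1i2 a 95% interval of the difference ran from −0.43 to 0.22, an interval that also holds values as low as those of several IFT genes. Dync1i1, the intermediate chain best known from neurons, and Dync1li1, a light intermediate chain, lay within 2 log2 units of background and differed by 0.17 and 0.01. The median over the 4 genes was −0.05, against −0.44 for IFT and −0.29 for axonemal dyneins, and this gap between subgroups was not tested. All 12 IFT genes and 3 of the 5 axonemal dynein genes are bright, so these medians compare genes of unlike brightness.

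The stem cell arrays were uneven in the same order for most of the genes. Relative to the total testicular cell means, the median of the 23 genes was −0.65, −0.14 and −0.30 on stem cell arrays 1, 2 and 3. The medians of the 5813 bright genes were −0.38, −0.09 and −0.12, in the same order. Array 1 was the lowest of the stem cell arrays in 21 of 23 genes, in 5299 of all 12393 and in 3299 of the 5813 bright genes. Array 2 was the highest in 18 of 23, in 3997 of all and in 2671 of the bright genes. The order 1, 3, 2 from low to high was seen in 17 of 23 members, 2607 of all genes and 1946 of the 5813 bright genes. The standard deviation was larger among stem cell than among total testicular cell arrays in 20 of 23, as it was in 9453 of all 12393 genes and 5079 of the 5813 bright genes. For IFT genes the medians were −0.82, −0.15 and −0.42, for the BBSome −1.27, −0.33 and −0.81 and for axonemal dyneins −0.51, −0.11 and −0.17.

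Several array measures moved with this unevenness, and their part in it was not tested. The macrophage markers had a median difference from the total testicular cell mean of 5.14, 3.66 and 3.26 on stem cell arrays 1, 2 and 3, and the 7 measured Leydig cell markers one of 2.73, 1.54 and 0.30. Both lists were thus highest on the array where the member genes had their lowest median. The order of both lists on arrays 2 and 3 was not the mirror of that of the member genes. Hybridization control probe sets averaged 8.96 on stem cell array 1 and 8.37 to 8.51 on the other 5 arrays. The actin control gave a gap between its 3′ and 5′ probe sets, a sign of RNA integrity, of 0.58 on stem cell array 1 and of 0.24 to 0.45 on the others. The same gap for the GAPDH control was lowest on stem cell array 1, at −0.45, with −0.43 on stem cell array 2 and −0.18 to 0.09 on the other arrays, so the controls differed in direction. Arrays were washed in 3 fluidics rounds. Within round 1, where stem cell array 1 can be set against total testicular cell arrays 1 and 3, the members' median difference was −0.66 with 20 of 23 negative. Within round 3, where stem cell array 2 meets total testicular cell array 2, it was −0.14 with 18 of 23 negative, and the medians over all genes were −0.09 and −0.05. Round 2 held 1 array only.

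**Figure D3:**
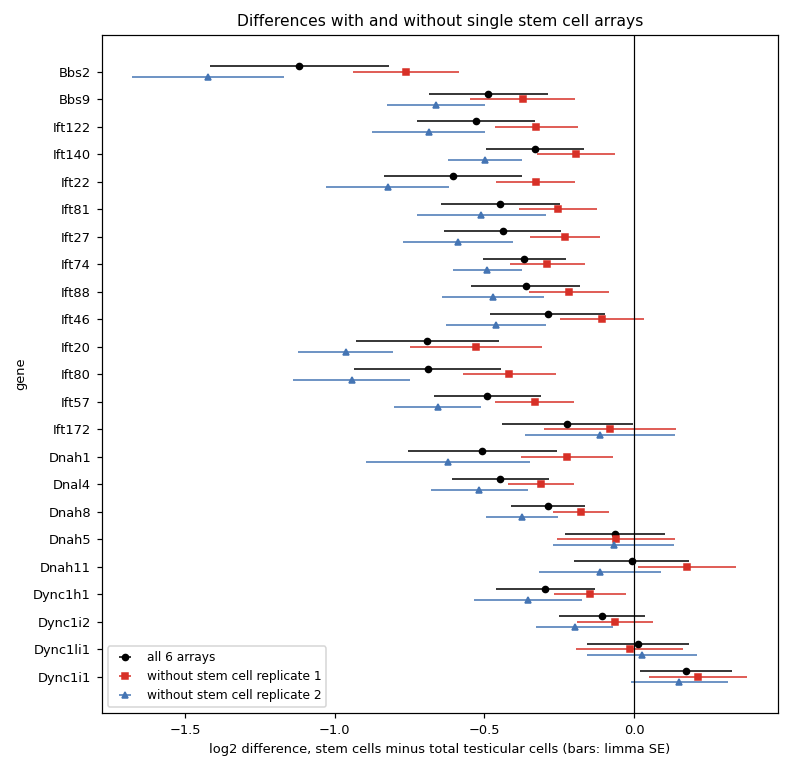
Log2 difference of each member gene (x axis; bars are limma standard errors) with all 6 arrays (black), without stem cell replicate 1 (red) and without stem cell replicate 2 (blue), by gene (y axis). The blue points of Bbs2, Ift20, Ift80 and Ift57, the genes past the threshold without replicate 2, lie at −1.42, −0.96, −0.94 and −0.66, and the red points lie nearer 0 for nearly all genes, with a median of −0.22.

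Leaving out stem cell replicate 2 brought 4 of the 23 genes past the threshold, Bbs2, Ift20, Ift80 and Ift57, all lower, where 4.25% of all genes were then called lower. These 4 genes are bright, and the share among bright genes was not counted for that fit. Replicate 2 was the highest stem cell array in 18 of the 23, so leaving it out lowers the stem cell mean of those genes. Without stem cell replicate 1, 0 of 23 passed (0.178% of all genes lower), and without stem cell replicate 3, 0 of 23 (0.75%). The median difference was −0.50 without replicate 2, −0.22 without replicate 1 and −0.43 without replicate 3.

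Other genes of the same machinery, from 8 lists of cilia and dynein genes, had negative medians in each list, from −0.45 to −0.11. Of 79 measured genes in these lists, all outside the symbol rule, 71 had negative differences, 39 had all stem cell values below the others and 4 above, and 0 passed the adjusted test in either direction, and before adjustment 32 were lower and 2 higher at p under 0.05. Their median was −0.34. Over all genes the shares were 57% negative, 19.2% with all stem cell values below, 13.8% with all above, and 13.1% lower and 11.8% higher before adjustment. Of the 79, 68 were bright, and among bright genes 70.9% were negative, 31.5% had all stem cell values below and 21.6% were lower before adjustment.

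IFT subunits that carry other symbols had a median of −0.38 over 4 genes, with Ttc30a1 at −0.65 and Cluap1 at −0.44, and 2 of the 4 had all stem cell values below. Kinesin-2 motors, which drive the outward journey, had a median of −0.32 over 5 genes. Kif3a, a motor subunit, differed by −0.44 and Kifap3, the cargo adaptor, by −0.42, and both had groups that did not overlap. Their other probe sets gave −0.84 and −0.57. Partners of the BBSome and ciliary small GTPases leaned little, with a median of −0.11 over 10 genes. In that list Ttc8, itself a BBSome subunit, differed by −0.63 and Rab23, a GTPase of ciliary signalling, by −0.52, with −1.08 on its other probe set.

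The axoneme lists held nearly uniformly negative differences, none past the adjusted test. All 11 measured genes of axonemal dynein assembly and docking were negative (median −0.41, 7 with all stem cell values below). They were led by Dnaaf4, listed under its older name Dyx1c1, a cytoplasmic assembly factor, at −1.003 (adjusted p = 0.0975), and Wdr78, an intermediate chain gene of an inner arm dynein, at −0.77 (adjusted p = 0.115). All 15 genes of radial spokes, central pair, dynein regulatory complex and tektins were negative too (median −0.41, 10 with all stem cell values below). Ccdc65 (−0.68) and Gas8 (−0.62), both of the dynein regulatory complex, had the largest differences there. In the transition zone, the gate at the base of the cilium, 9 of 10 genes were negative (median −0.45, 8 with all stem cell values below), led by Cep290 at −0.73 and Tctn2 at −0.62. Cep290 lay within 2 log2 units of background on all arrays, at 3.45, 3.33 and 3.69 against 2.37, 3.21 and 2.70.

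Among the 7 measured genes listed as ciliary transcription factors all were negative (median −0.29). Rfx1 differed by −0.69 and Rfx5 by −0.54, both without overlap. Both are RFX family members by name, and whether either acts on the promoter matches shown above was not tested. Dynein light chains, dynactin and dynein regulators, which mostly serve the general motor, had a median of −0.19 over 17 genes. By the probe set standing for each gene, the largest difference in that list pointed upward. Dynlrb1, a roadblock light chain, was 1.18 higher (adjusted p = 0.0832), without overlap. Probe sets of 1 gene could disagree: Dynlt3 differed by −0.07 on the one standing for it and by 1.43 on another. Dynlt1f, within 2 log2 units of background, was 0.52 lower on the log2 scale. Dynlt1f belongs to a cluster of near-identical gene copies, so its own level is uncertain.

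**Figure D4:**
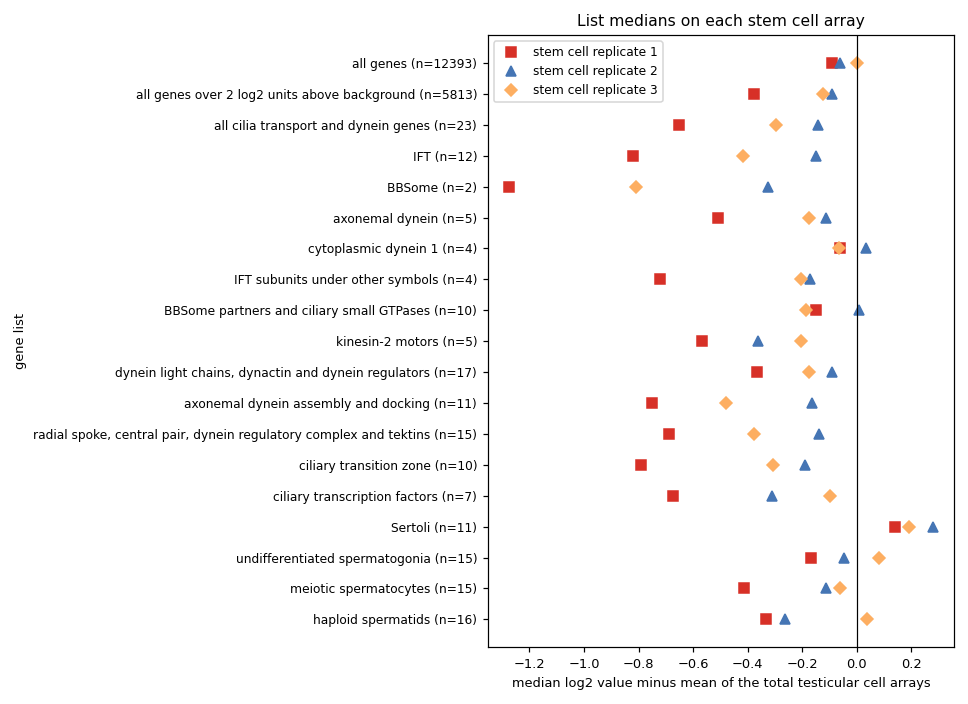
Median over each gene list of the log2 value minus the total testicular cell mean (x axis), for stem cell replicates 1 (squares), 2 (triangles) and 3 (diamonds), with the number of genes measured beside each list (y axis); macrophage and Leydig lists, at 5.14 and 2.73 on replicate 1, are off this scale and not drawn. IFT, axonemal dynein assembly and radial spoke lists show the order replicate 1, 3, 2 from low to high, which the haploid spermatid list does not. The 5813 bright genes show that order too, at −0.38, −0.09 and −0.12 on replicates 1, 2 and 3, so it is not particular to cilia lists. Kinesin-2 motors (−0.57, −0.36 and −0.20) and ciliary transcription factors (−0.67, −0.31 and −0.10) rise from replicate 1 to 3, as the spermatid list does. BBSome partners are lowest on replicate 3.

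Germ cell stage markers gave a smaller lean than the member genes, near the bright-gene median of −0.21. Their order over the stem cell arrays was 1, 2, 3 from low to high, as in the kinesin-2 and ciliary transcription factor lists. The 16 measured haploid spermatid genes had a median difference of −0.16 and medians of −0.33, −0.26 and 0.04 on stem cell arrays 1, 2 and 3, with 2 of 16 having all stem cell values below and 0 passing (and 0 lower before adjustment at p under 0.05). The 15 measured meiotic genes had a median of −0.19 and medians of −0.41, −0.11 and −0.06, with 6 of 15 having all stem cell values below and 0 passing (before adjustment, 5 lower and 1 higher at p under 0.05). On stem cell array 3, the member genes thus stood at −0.30 where the spermatid markers stood at 0.04. On array 2 the member genes stood at −0.14 and the spermatid markers at −0.26. The spermatid list also varied among total testicular cell arrays, with mean levels of 10.86, 10.62 and 10.94 on arrays 1, 2 and 3. On stem cell arrays 1, 2 and 3 these were 10.46, 10.56 and 10.87, so gaps on single arrays carry little information. Several spermatid genes are close to the top of the array's range, where differences can be compressed, and the gap between the lists was not tested.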

How the data were processed

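Values were the log2 probe set summaries that the authors deposited, 1 column per array. MAS5 and RMA appear in the submitters' processing notes, without version or role, so background correction and normalization are not given in the sources used here. Instrument settings deposited with each array gave fluidics rounds (run starts under 15 minutes apart) and modules. After 64 control probe sets were set aside, 22626 were fitted with limma 3.58.1 in R 4.3.3 (lmFit, eBayes with intensity trend, two-sided, Benjamini-Hochberg over all 22626, threshold 0.05). The platform annotation gave 1 gene for 20380, several for 691 and no gene for 1555. Where a gene had several probe sets, the one of highest average level over all arrays stood for it. Background was the 95th percentile of the means of 27 bacterial control probe sets. The number of arrays limits the precision.

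The genes and lists were chosen with earlier results of these data known. All member genes may be named; of other lists, genes past the threshold (at most 4 for a cell type list) or, with none, the 2 largest absolute differences. The Sertoli cell list is also reported in the closing section. The fit was tested on simulated data with 200 probe sets given known differences. It recovered 52.2%, 94.0% and 100% of those with log2 differences of 1, 2 and 4. Smaller differences, such as those of most member genes, were not simulated. Alternatives were other normalizations, a filter on dim probe sets, blocks, other empirical Bayes settings, array weights, other gene representations and leaving out each array; centring on hybridization controls and the module block were chosen after seeing the data. Promoter sequences are from RefSeq.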

Additional observations from a re-analysis of the deposited data

How the results depend on the processing

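The members' median difference (−0.37) stayed negative under every alternative run, from −0.53 with centring on hybridization controls to −0.13 with the fluidics module as a block. Only module 2 held arrays of both groups, stem cell array 2 and total testicular cell array 3. The module block value thus compares 1 array with 1 array and says little of the other arrays. Left-out arrays moved it between −0.50 and −0.22. The number of members called lower (0) was 1, Bbs2, with hybridization control centring, with array weights and with the replicate number as a block (adjusted p = 0.0408 for Bbs2 in the replicate block fit), and 0 to 4 with arrays left out; members called higher stayed at 0 throughout. Members with all stem cell values lower numbered 13 to 17 with arrays left out, and members with all higher 0 to 2. Leaving out an array cannot make separated groups overlap, so these counts could only stay or rise. With other normalizations or gene representations, members with all values lower numbered 11 to 16 and those with all higher 0. Over all probe sets, 34 were lower and 316 higher. These counts were 91 lower with median centring, 487 and 844 with hybridization control centring, and 196 and 1065 with the replicate block. They were 84 and 1200 with the round block, 6 and 119 without an intensity trend, and 148 and 853 with array weights. With arrays left out they ran from 0 to 943 and from 36 to 1365. The cause was not tested. Whether replicate numbers pair the samples was not settled. Deviations of same-numbered arrays correlated at −0.01, 0.01 and 0.30, and not every array correlated best with the one of its own number. The deviations were taken from group means of few arrays, so these correlations depend on one another. Signs turned under some alternative for Dync1li1, Dnah5 and Dnah11, and under the module block alone for Dync1i2, Ift140 and Ift46. None of these genes was called in the main fit.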

Other observations

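Of 11 measured Sertoli cell markers, Clu, a secreted chaperone, was higher in the stem cell arrays (log2 difference 2.02, adjusted p = 0.0234), and the other 10 did not pass. The list's medians were 0.14, 0.28 and 0.19 on stem cell arrays 1, 2 and 3. Array 1 was the lowest stem cell array in 6 of the 11, and 7 had total testicular cell means no more than 2 log2 units over background, where a lower level could be missed.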
